A study of Mus musculus with 20 samples.

Results

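The contacts described here are those of a 25 kb element downstream of Klf4 on mouse chromosome 4, at chr4:55470347-55495347 in the mm9 assembly, measured by chromosome conformation capture carbon copy (5C). In 5C, fixed chromatin is cut with HindIII and religated, and each count is a read of an amplified ligation product that joins a fragment with a forward primer to a fragment with a reverse primer. Members were all pairs of the Klf4 region in which a fragment overlapped the element and no fragment overlapped the Klf4 promoter window (chr4:55535347-55555347) or the Zfp462 promoter window (chr4:54950817-54970817). The rule used position alone and no measured value. It gave 711 pairs of the 97243 forward and reverse pairs that lay within a region, and all 711 had counts. A mean of at least 10 counts over the 10 libraries was required for a test, which 629 members passed and 82 did not.

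KLF4 is a zinc finger transcription factor that helps to hold embryonic stem cells in the pluripotent state and is 1 of the factors used to reprogram somatic cells. Distal enhancers act on a gene over long genomic distances and are often found in contact with its promoter in cells that express the gene, and a contact count reports how often a pair of fragments was joined, not whether the element was active. The gene is on the minus strand, so the element at lower coordinates lies downstream of it. The element's centre was 62.5 kb from the Klf4 start, and its upper end was 44.7 kb from the Klf4 end. On the other side, Rad23b, which encodes a protein of DNA damage recognition and proteasomal delivery, ended 65.2 kb below the element, and Zfp462, which encodes a zinc finger protein, ended 373.9 kb below it. These gene positions are those of the expression table that the authors deposited.

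The study compared the architecture and RNA of 5 kinds of mouse cells, with 2 5C libraries and 2 RNA libraries for each. Neural progenitor cells (NPC) were cultured as neurospheres from whole brains of 129SvJae x C57BL/6 mice carrying Sox2-eGFP at postnatal day 1 and were plated on poly-D-lysine and laminin before fixation. Induced pluripotent stem (iPS) cells were derived from primary NPC of this kind and kept on mouse embryonic fibroblasts with serum and LIF, and iPS 2i cells were iPS cells moved after reprogramming to serum-free medium with LIF, CHIR99021 (a GSK3 inhibitor) and PD0325901 (a MEK inhibitor). ES 2i cells were embryonic stem (ES) cells of the line V6.5 in that same kind of medium, and ES cells were V6.5 cells, a male 129SvJae x C57BL/6 line, on fibroblast feeders with LIF. The labels do not give how many iPS lines were used. The iPS and NPC cells carried Sox2-eGFP and V6.5 is not labelled with it. Reporter, origin and cell state thus cannot be told apart between them. The removal of serum, the 2 inhibitors and any change in feeder cells cannot be told apart in 2i. Nothing says that the 2 libraries of a group came from separate cultures, and the p-values then cover only the spread between these libraries, which may be technical. A change in all cells and a change in the share of cells that have a contact cannot be told apart in bulk samples.

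The 5C libraries held between 10508118 and 26533530 counts, of which 80.6% to 91.8% lay within a region. Members took 0.308% and 0.354% of the within-region counts in NPC, 0.368% and 0.410% in iPS, 0.586% and 0.596% in iPS 2i, 0.710% and 0.707% in ES 2i, and 0.492% and 0.490% in ES. Pearson's r between the 2 libraries of a group over the 629 tested members was 0.704 in NPC, 0.778 in iPS, 0.875 in iPS 2i, 0.893 in ES 2i and 0.837 in ES, so NPC members varied most between libraries. The element had 6 fragments with a primer, in 120 pairs each, namely FOR_195 (chr4:55470859-55472385), REV_196 (chr4:55472387-55475246), FOR_197 (chr4:55475248-55477190), REV_198 (chr4:55477192-55478662), FOR_202 (chr4:55480574-55494277) and REV_204 (chr4:55494304-55497862). FOR_202 was 13704 bases long and the other 5 between 1471 and 3559 bases. FOR and REV mark the primer direction, and the number is the fragment's index in the primer name.

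Rad23b is the gene whose promoter fragment was read against the element in these pairs, while Klf4 is the gene the element lies behind, so their promoters are shown. Both are the RefSeq sequence from 250 bases before to 50 bases after the start in GRCm38.p6, a build other than that of the 5C files, at chr4:55349792-55350091 on the plus strand for Rad23b and chr4:55532426-55532725 on the minus strand for Klf4. Capitals mark CACCC, the short box that Krüppel-like factors are known to bind, which was searched on both strands as CACCC and GGGTG.
Rad23b: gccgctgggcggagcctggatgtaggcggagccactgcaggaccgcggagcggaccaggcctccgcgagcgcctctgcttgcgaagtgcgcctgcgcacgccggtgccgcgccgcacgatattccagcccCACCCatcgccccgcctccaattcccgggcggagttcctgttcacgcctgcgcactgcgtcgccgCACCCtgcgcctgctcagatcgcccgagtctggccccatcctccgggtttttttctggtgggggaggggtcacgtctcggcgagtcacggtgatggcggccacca
Klf4: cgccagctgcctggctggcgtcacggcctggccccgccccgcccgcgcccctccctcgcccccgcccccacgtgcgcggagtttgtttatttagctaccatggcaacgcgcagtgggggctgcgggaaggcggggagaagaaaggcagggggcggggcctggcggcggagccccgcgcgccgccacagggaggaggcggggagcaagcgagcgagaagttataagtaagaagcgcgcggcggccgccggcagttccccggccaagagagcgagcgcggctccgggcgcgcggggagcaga
CACCC was found 2 times in the Rad23b window, on the strand shown, and 0 times in the Klf4 window. Of the 32851 promoter windows of this length, 18895 (57.5%) held the motif on either strand, so a match is common. The GC content was 70.7% in the Rad23b window and 74.3% in the Klf4 window.

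Each pair's count was set against its expected count, the mean of the pairs in the same library, region and 1 of 20 strata of equal size by distance. Observed over expected, a ratio of sums over the members, was lowest in NPC and highest in ES 2i. It was 0.617 and 0.645 in NPC, 0.786 and 0.859 in iPS, 1.10 and 1.09 in iPS 2i, 1.38 and 1.28 in ES 2i, and 0.921 and 0.930 in ES. The libraries of each group stood apart from those of every other group, in the order NPC, iPS, ES, iPS 2i and ES 2i, and no test was made of this sum. Pairs of the long fragment FOR_202 held between 34.6% (ES replicate 2) and 52.8% (ES 2i replicate 1) of the member counts. In the 550 members with no fragment over 8 kb, iPS 2i (0.705 and 0.769) overlapped ES (0.711 and 0.750). Over all members the mean was 0.631 ± 0.0203 in NPC and 1.33 ± 0.0719 in ES 2i (SD, n = 2 each). The other 13689 pairs of the Klf4 region stayed between 0.967 and 1.02 in all 10 libraries. They make up most of the pairs behind the expected mean, so a ratio near 1 is set by construction. Where the expected count was the median of the stratum, the sum of the members relative to the rest of the region, as a log2 difference, was -0.68 for NPC minus ES against -0.59 with the mean, but the members alone gave -0.03 and the rest of the region 0.65. For iPS minus NPC it was 0.48 relative to the rest, against 0.40 with the mean, and the members alone turned to -0.31 with the rest of the region at -0.80.

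**Figure D1:**
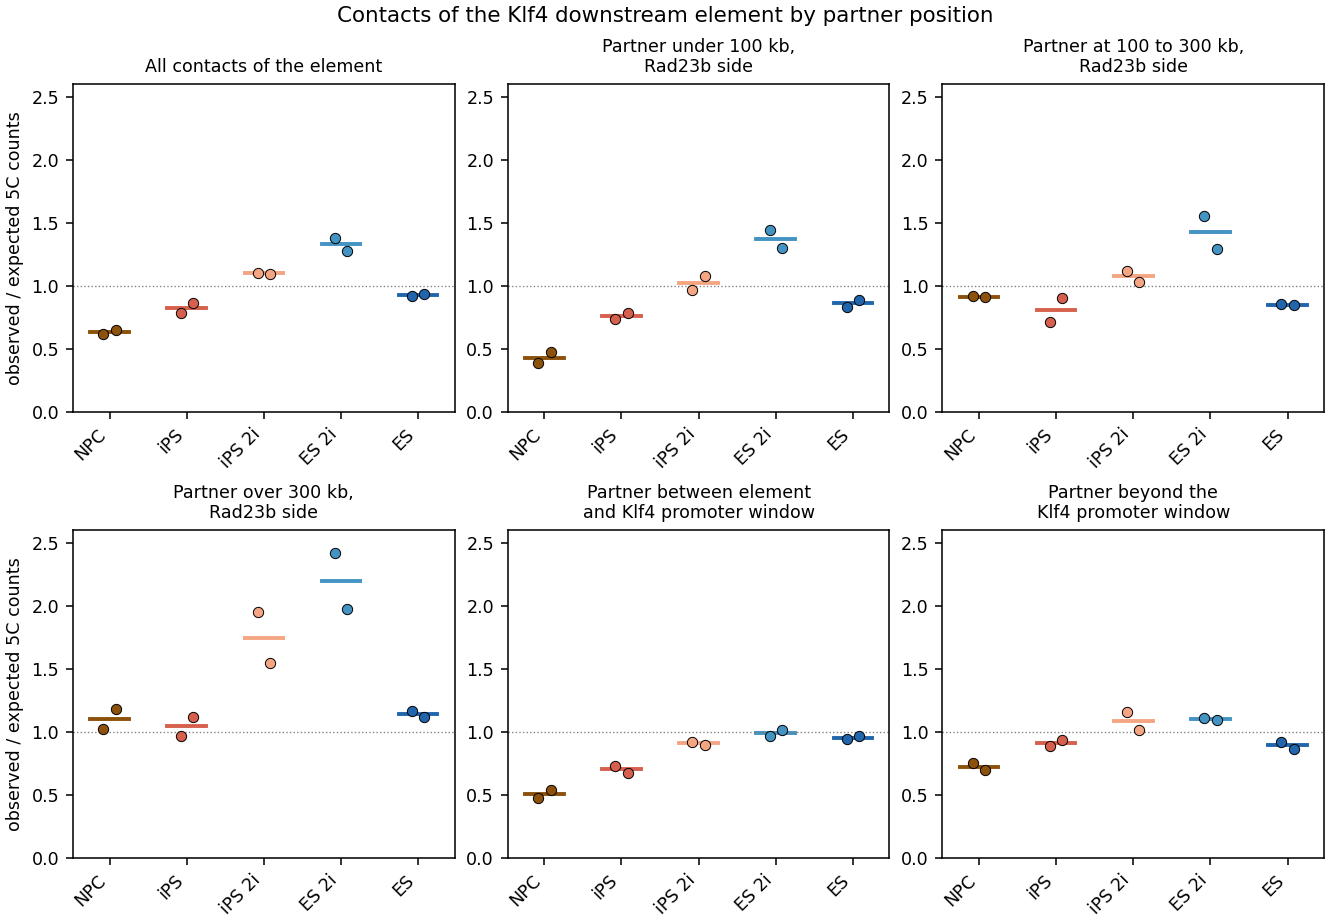
Observed over expected counts of the element's pairs in each of the 10 libraries, for all members and for 5 classes of partner position, with groups in the order NPC, iPS, iPS 2i, ES 2i and ES. Points are libraries and horizontal bars are means of 2; the NPC points are the lowest for all members (0.617 and 0.645) and the ES 2i points the highest (1.38 and 1.28).

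By position, NPC had the lowest level within 100 kb on the Rad23b side and in both classes on the Klf4 side, but not inside the element or farther away on the Rad23b side. The 9 pairs inside the element gave 0.916 and 0.860 in NPC, 0.715 and 0.938 in iPS, 1.28 and 1.38 in iPS 2i, 1.75 and 1.58 in ES 2i, and 1.02 and 1.09 in ES. Partners within 100 kb on the Rad23b side averaged 0.427 ± 0.0615 in NPC, 0.758 ± 0.0360 in iPS, 1.02 ± 0.0787 in iPS 2i, 1.37 ± 0.100 in ES 2i and 0.858 ± 0.0411 in ES (observed over expected, SD, n = 2 each). Partners between the element and the Klf4 promoter window averaged 0.505 ± 0.0418 in NPC, 0.701 ± 0.0380 in iPS, 0.908 ± 0.0156 in iPS 2i, 0.991 ± 0.0348 in ES 2i and 0.951 ± 0.0158 in ES. In both of these classes the 2 NPC libraries lay below all others. At 100 to 300 kb on the Rad23b side the means of NPC (0.913), iPS (0.803) and ES (0.849) were close to each other and lower than those of iPS 2i (1.07) and ES 2i (1.42). Over 300 kb, ES 2i averaged 2.20 ± 0.315 and iPS 2i 1.75 ± 0.284, against 1.10 in NPC, 1.04 in iPS and 1.14 ± 0.0344 in ES. Beyond the Klf4 promoter window the means lay closer together, at 0.724 in NPC, 0.910 in iPS, 1.09 in iPS 2i, 1.10 in ES 2i and 0.893 in ES, and the NPC libraries (0.753 and 0.694) were again below all others.

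**Figure D2:**
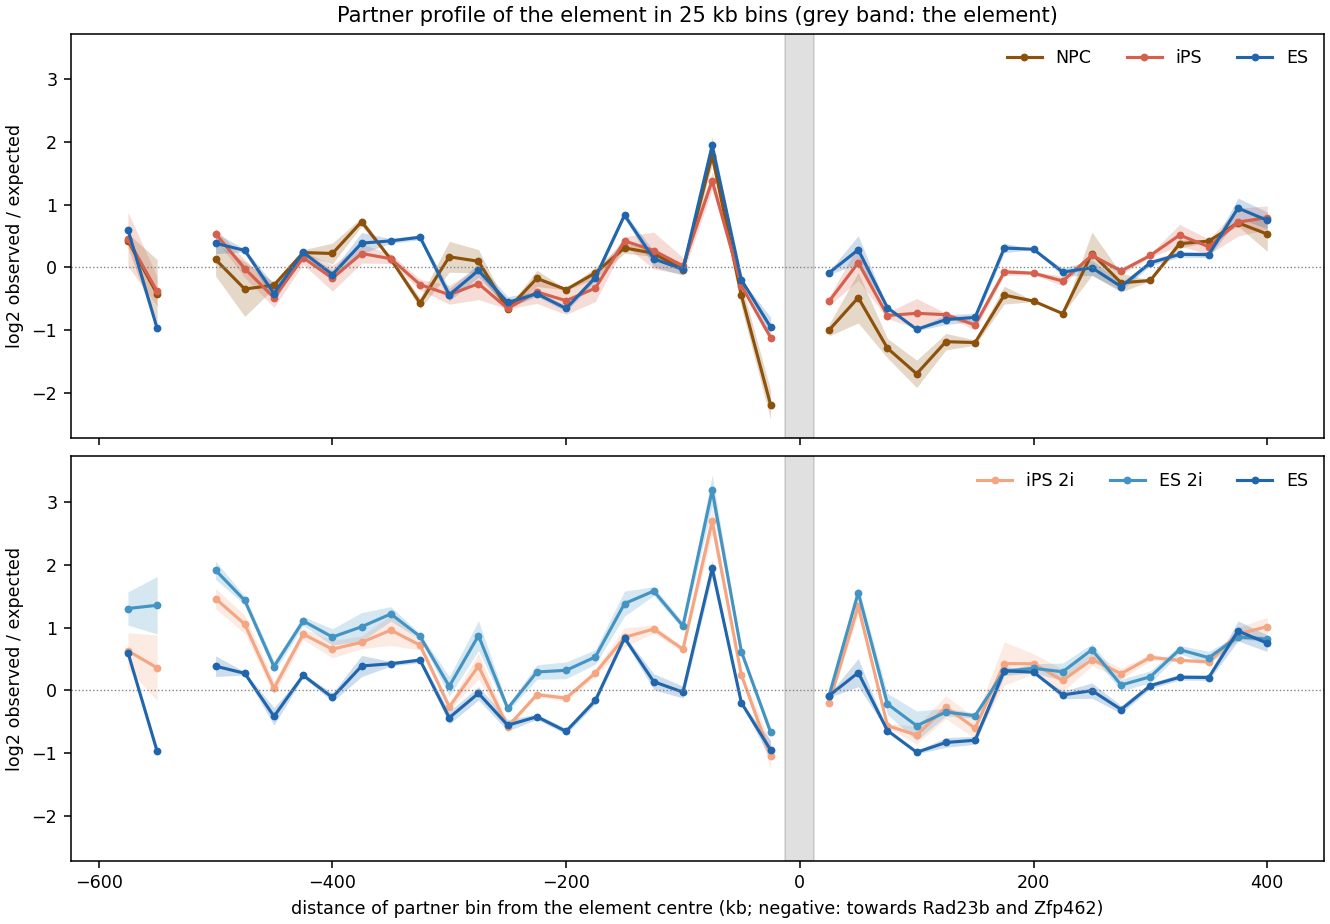
Log2 observed over expected of the element's pairs in 25 kb bins by distance of the partner from the element's centre, with negative distances towards Rad23b and Zfp462 and positive ones towards and beyond Klf4. Lines are the means of 2 libraries and the shading spans both; the upper panel holds NPC, iPS and ES, the lower one iPS 2i, ES 2i and ES, and the 2i lines lie above the ES line over most of the negative side.

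The highest bin of the profile was centred 75 kb from the element's centre on the Rad23b side, in 9 pairs. It gave 3.81 and 3.11 in NPC, 2.36 and 2.88 in iPS, 7.48 and 5.61 in iPS 2i, 10.8 and 7.66 in ES 2i, and 4.22 and 3.51 in ES. There the 2i groups were high, NPC overlapped ES, and iPS was the lowest. In each 25 kb bin centred from 25 to 225 kb on the Klf4 side both NPC libraries lay below both ES libraries.

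The fragments of the element did not share 1 pattern. FOR_202 had the highest level, at 1.05 and 1.12 in NPC, 1.53 and 1.68 in iPS, 2.39 and 2.21 in iPS 2i, 3.36 and 2.91 in ES 2i, and 1.67 and 1.62 in ES. REV_204, at the edge nearest to Klf4, gave 0.360 and 0.346 in NPC, against 0.766 and 0.697 in iPS, 0.867 and 0.757 in iPS 2i, 0.900 and 0.831 in ES 2i, and 0.688 and 0.744 in ES. REV_198 gave 0.506 and 0.609 in NPC, 0.694 and 0.730 in iPS, 1.09 and 1.16 in iPS 2i, 1.43 and 1.37 in ES 2i, and 1.17 and 1.19 in ES. The REV_198 libraries of iPS thus lay between those of NPC and of ES, and those of REV_204 overlapped ES.

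FOR_195 and REV_196, at the edge nearest to Rad23b, did not have low values in NPC. FOR_195 gave 0.906 and 0.976 in NPC, 0.554 and 0.808 in iPS, 0.624 and 0.914 in iPS 2i, 1.09 and 1.05 in ES 2i, and 0.798 and 0.868 in ES. REV_196 gave 0.947 and 0.827 in NPC, 0.814 and 0.903 in iPS, 1.22 and 1.20 in iPS 2i, 1.17 and 1.15 in ES 2i, and 0.915 and 0.891 in ES, so its 2 groups in 2i lay above the other 3. FOR_197 was low throughout, from 0.182 to 0.415. It held 58 of the 82 members that did not reach the count minimum.

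**Figure D3:**
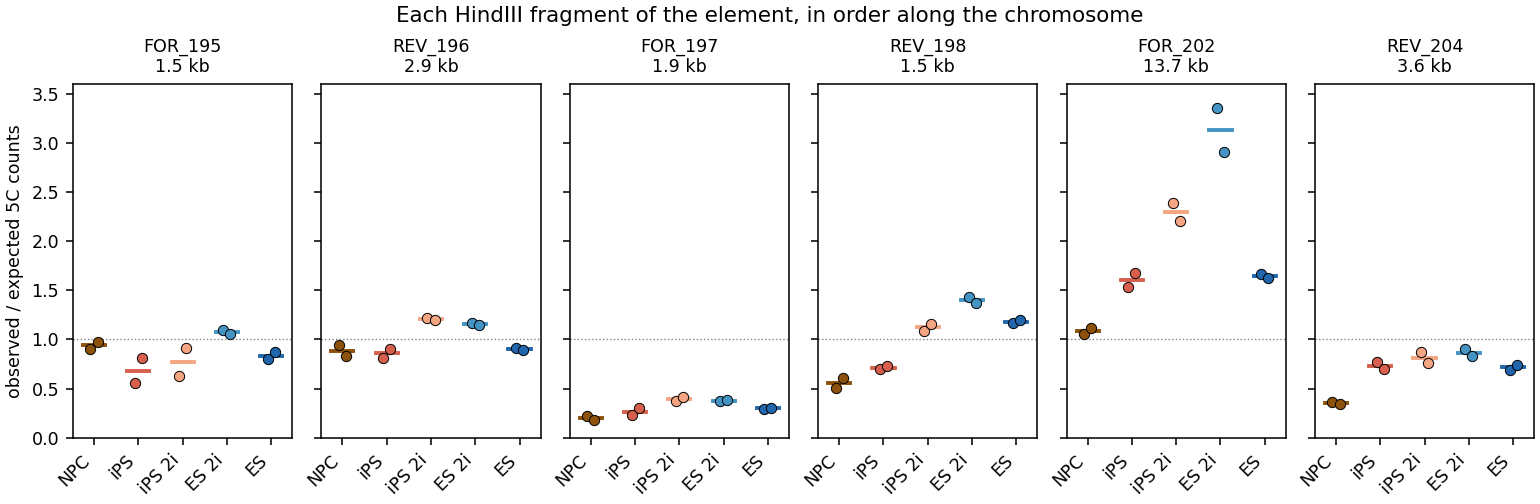
Observed over expected counts of each of the 6 fragments of the element in each library, with groups in the order NPC, iPS, iPS 2i, ES 2i and ES. Points are libraries and bars are means of 2; FOR_202 reached 3.36 and 2.91 in ES 2i, and REV_204 had its lowest points in NPC (0.360 and 0.346).

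FOR_202 is a long fragment, and long fragments behaved differently between libraries outside the Klf4 region too. Pairs in other regions with both fragments over 8 kb (1248 pairs) gave 1.58 and 1.30 in NPC, 1.26 and 1.62 in iPS, 1.86 and 1.39 in iPS 2i, 2.15 and 1.82 in ES 2i, and 1.29 and 1.18 in ES. A length factor was therefore taken in each library from pairs outside the Klf4 region, an alternative chosen after the data were seen. With it FOR_202 gave 0.841 and 0.959 in NPC, 1.38 and 1.36 in iPS, 1.77 and 1.84 in iPS 2i, 2.34 and 2.20 in ES 2i, and 1.50 and 1.54 in ES. The order of the group means stayed as it was, and the distance between ES 2i and ES became smaller. In the 550 members with no fragment over 8 kb, the level was 0.469 and 0.491 in NPC, 0.595 and 0.630 in iPS, 0.705 and 0.769 in iPS 2i, 0.776 and 0.788 in ES 2i, and 0.711 and 0.750 in ES.

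In NPC against ES, most of the called contacts fell, on both sides of the element. Of the 629 tested members, 14 were higher and 79 lower in NPC (edgeR's quasi-likelihood F test, Benjamini-Hochberg adjusted p below 0.05 over all 75889 tested pairs). That is 14.8% of the members, where 17.9% of all tested pairs were called. By direction, 2.23% of the members were higher, where 8.54% of all pairs were, and 12.6% were lower, where 9.32% of all pairs were. The median log2 change was -0.28 over the members and -0.01 over all tested pairs. In the rest of the Klf4 region 12.5% of the pairs were called. The split was 3 higher and 264 lower with the region total as the offset, and 60 higher and 26 lower with a shared change of each primer in the offset, which removes by construction what all pairs of a fragment have in common. Without ES replicate 1 the count of members called was 52, and without ES replicate 2 it was 44. Of the pairs within 100 kb on the Rad23b side, 17 of 72 fell and 0 rose, and of those between the element and the Klf4 promoter window 11 of 33 fell and 1 rose. Beyond the Klf4 promoter window, the class with the most pairs, 30 of 252 fell (11.9%) and 5 rose. Inside the element 4 of 9 fell (44.4%) and 1 rose. The share that fell was 23.6% within 100 kb on the Rad23b side and 33.3% between the element and the Klf4 promoter window. At 100 to 300 kb on the Rad23b side 9 of 119 fell and 5 rose, and at over 300 kb 8 of 144 fell and 2 rose.

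The calls were uneven over the fragments. For REV_204, 28 of 111 tested pairs fell and 1 rose (median log2 change -1.08), and for REV_198 22 of 117 fell and 0 rose (median -0.63). FOR_197 had 13 of 62 lower and 0 higher, and REV_196 10 of 114 lower and 2 higher. FOR_195 had 3 lower and 3 higher of 115, and FOR_202 7 lower and 9 higher of 119. The midpoint of REV_204 lies outside the element. Members taken by a fragment's midpoint, without REV_204, had 52 lower and 13 higher of 521 (median -0.13). With the primer effect in the offset, REV_204 had 10 lower and 7 higher, and REV_198 had 0 lower and 9 higher. Without ES replicate 2, 14 pairs of REV_204 were lower; without ES replicate 1, 11 of REV_198 were.

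The single pairs named here are the largest of these changes. They were picked by size among called pairs whose 2 groups did not overlap in observed over expected. Over all comparisons 41 results of single pairs were named. With the primer effect in the offset 13 of the 41 stayed the same, 27 became weaker and 1 reversed. The pair of REV_204 with FOR_264, 138.9 kb apart and beyond the Klf4 promoter window, had 3 and 2 counts in NPC, 77 and 51 in iPS, 48 and 34 in iPS 2i, 40 and 54 in ES 2i, and 98 and 122 in ES. NPC was close to 0 here and overlapped no other group, with a log2 change of -3.70 ± 0.64 (SE) against ES and an edgeR adjusted p of 0.000446. The pair of FOR_197 with REV_193, 9.72 kb apart at the Rad23b edge, had 28 and 52 counts in NPC, 87 and 161 in iPS, 183 and 258 in iPS 2i, 282 and 377 in ES 2i, and 346 and 303 in ES. Its log2 change was -3.07 ± 0.40 (edgeR adjusted p = 2.29e-05). Both NPC libraries lay below all 8 others in counts.

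The other named pairs that fell in NPC were FOR_197 with REV_204 inside the element (log2 change -2.93), FOR_270 with REV_204 (-2.92) and FOR_234 with REV_198 (-2.71). A few pairs went the other way. REV_204 with FOR_302, 242.3 kb away, had an observed over expected of 12.7 and 5.29 in NPC, against 1.89 and 1.63 in ES, and a log2 change of 2.35 ± 0.44 (edgeR adjusted p = 0.000883). Its NPC libraries were far apart from each other, at 303 and 154 counts. FOR_202 rose in NPC with REV_97 (log2 change 2.11), REV_133 (1.84), REV_104 (1.64) and REV_336 (1.59), all of them over 200 kb away.

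**Figure D4:**
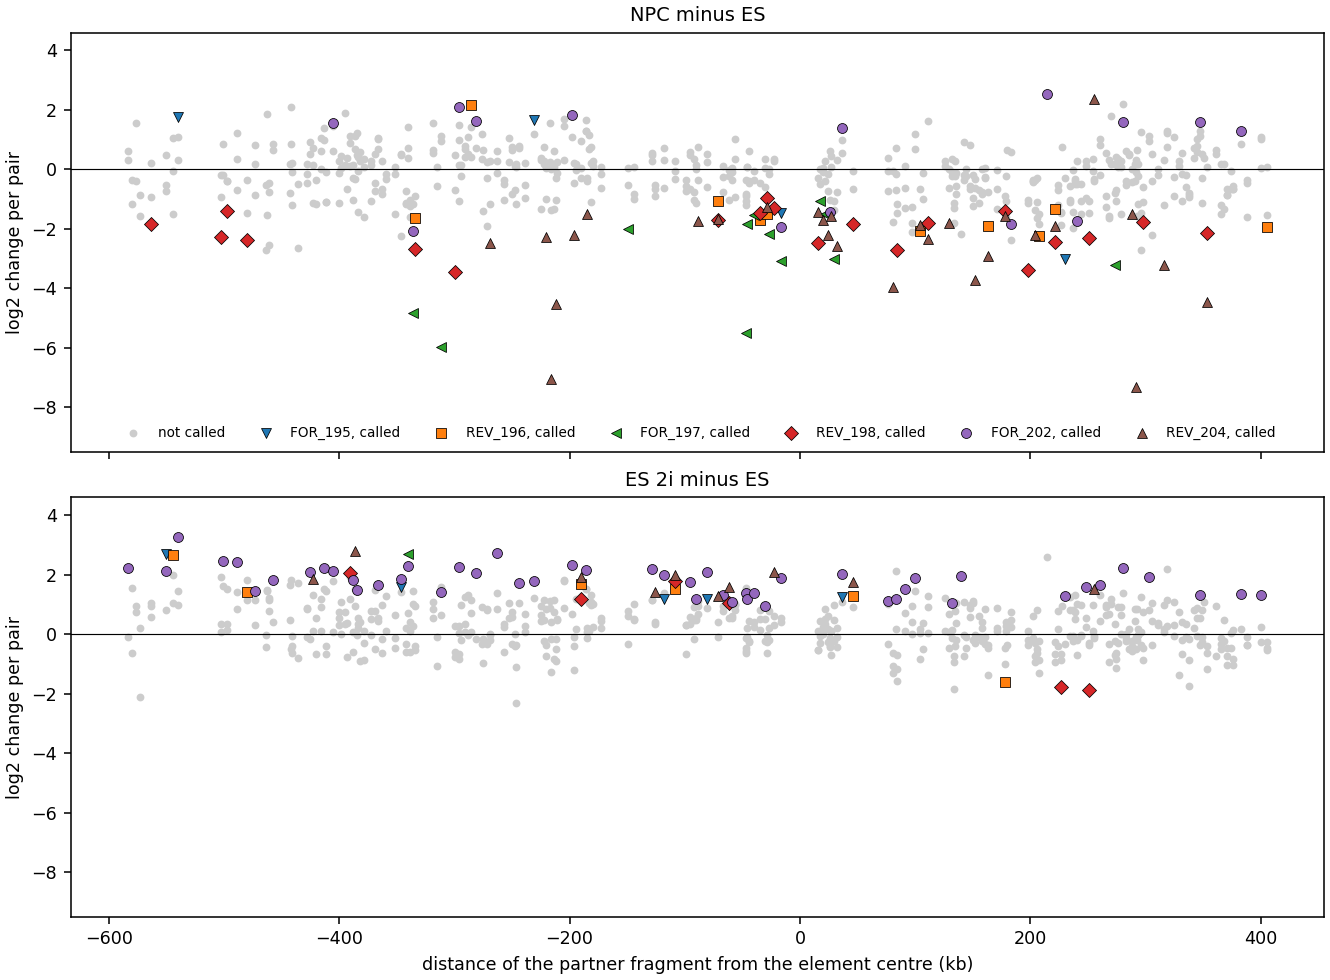
Log2 change of each tested pair of the element with a partner outside it, against the distance of that partner from the element's centre. The panels are NPC minus ES and ES 2i minus ES. Called pairs (edgeR adjusted p below 0.05) are coloured by their fragment of the element and the others are grey. The 9 pairs inside the element are not drawn but enter the counts that follow. In NPC minus ES 79 pairs were lower and 14 higher, and in ES 2i minus ES 79 were higher and 3 lower, 53 of those higher being pairs of FOR_202.

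In iPS against the NPC they came from, the contacts of REV_204 rose, a fragment whose midpoint lies outside the element. Over the 629 members 38 pairs were higher and 5 lower in iPS, or 6.84%, where 6.91% of all tested pairs were called (4.91% higher and 2% lower). The split over the members was 43 higher and 23 lower under TMM scaling with no distance stratum, 266 and 4 with the region total, and 19 and 43 with the primer effect in the offset. Of the 111 pairs of REV_204, 23 rose, 1 fell and 102 had a log2 change above 0 (median 1.31), while FOR_202 had 2 higher and 0 lower of 119 and REV_198 2 higher and 1 lower of 117. Members taken by a fragment's midpoint, without REV_204, had 16 higher and 4 lower of 521 (median 0.004). The pair of REV_204 with FOR_264 gave a log2 change of 4.02 ± 0.64 (edgeR adjusted p = 0.000617), from the counts given above. REV_204 also rose with FOR_244 (3.18), FOR_270 (3.03) and FOR_242 (2.86), all beyond the Klf4 promoter window, and FOR_197 rose with REV_193 (2.90 ± 0.40, edgeR adjusted p = 0.000143). The pairs that fell included REV_204 with FOR_302 (-1.98) and FOR_195 with REV_212 (-1.36). This comparison shares the NPC libraries with NPC against ES, so the same NPC counts enter both. Without iPS replicate 1 the calls over the members numbered 16, and those of REV_204 were 11 higher and 0 lower.

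In iPS against ES, REV_198 had lower contacts. Over the members 3 pairs were higher and 9 lower in iPS, or 1.91%, where 5.17% of all tested pairs were called (3.71% higher, 1.46% lower). Under TMM scaling with no distance stratum the split was 2 higher and 41 lower. REV_198 accounted for 8 of the 9 lower pairs, out of its 117 (median log2 change -0.60), and REV_204 had 0 lower and 1 higher of 111. REV_198 with FOR_205, between the element and the Klf4 promoter window, had 136 and 203 counts in NPC, 144 and 150 in iPS, 393 and 360 in iPS 2i, 414 and 459 in ES 2i, and 942 and 879 in ES. Its log2 change for iPS minus ES was -1.40 ± 0.29 (edgeR adjusted p = 0.00599). Observed over expected, which accounts for depth, was 0.0824 and 0.114 in NPC, 0.212 and 0.205 in iPS, and 0.501 and 0.602 in ES, so iPS lay between NPC and ES. The pairs of REV_198 with FOR_60 in the Zfp462 gene body (-1.81), FOR_171 (-1.34) and FOR_190 (-1.27) on the Rad23b side and FOR_195 inside the element (-1.23) fell as well.

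These calls rest on few libraries. REV_198 had 2 lower pairs where any 1 of the 4 libraries compared was left out, and 0 with the primer effect in the offset. The members called over all fragments were then 2 without ES replicate 1, 3 without ES replicate 2, 3 without iPS replicate 1 and 5 without iPS replicate 2. FOR_202 rose in iPS with REV_314 (log2 change 2.03 ± 0.43, edgeR adjusted p = 0.00716) and with REV_97 (1.74). Summed fibroblast markers (6 of 9 measured) ranged from 2744 to 2945 CPM, a count scaled to library size, in iPS RNA and from 1202 to 1391 in ES RNA, and all 6 were higher in iPS. Their part in the contact differences was not tested.

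In ES 2i against ES, contacts of FOR_202 rose. Over the members 79 pairs were higher and 3 lower in ES 2i, or 13% called, where 11.8% of all tested pairs were called (6.53% higher and 5.27% lower) and 9.4% in the rest of the region. The median log2 change was 0.38 over the members and -0.004 over all pairs. FOR_202 gave 53 of the 79, with 0 lower and 113 of 119 pairs above 0 (median log2 change 1.13), and REV_204 gave 12 higher and 0 lower. The other 4 fragments had between 1 and 6 higher pairs each, and a pair inside the element counts under both of its fragments. With the length factor in the offset the members had 59 higher and 0 lower, and FOR_202 34 higher and 0 lower. With the primer effect in the offset the members had 3 higher and 3 lower, and FOR_202 1 higher and 2 lower.

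The count of members called in ES 2i against ES was 34 without ES replicate 1, 19 without ES replicate 2, 25 without ES 2i replicate 1 and 53 without ES 2i replicate 2. By position, 20 of 72 pairs within 100 kb on the Rad23b side, 13 of 119 at 100 to 300 kb and 23 of 144 at over 300 kb rose, with 0 lower in each. Between the element and the Klf4 promoter window 4 of 33 rose, and beyond that window 15 rose and 3 fell of 252. FOR_202 with REV_110, 267.5 kb away, had 99 and 63 counts in NPC, 57 and 162 in iPS, 210 and 169 in iPS 2i, 581 and 417 in ES 2i, and 198 and 159 in ES. Its log2 change was 2.71 ± 0.46 (edgeR adjusted p = 0.000738), and the counts of ES 2i overlapped those of no other group.

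The other named pairs that rose in ES 2i were those of FOR_202 with REV_14 (log2 change 3.25), REV_29 in the Zfp462 gene body (2.43), REV_133 (2.33) and REV_85 (2.28), at distances of 202.5 to 544.8 kb. REV_198 with FOR_298 (-1.89) and REV_196 with FOR_273 (-1.61) fell, and neither was called with the length factor in the offset. Partners in the Zfp462 gene body averaged 1.04 in NPC, 1.00 in iPS, 1.74 in iPS 2i, 2.14 in ES 2i and 1.03 in ES (observed over expected). Of their 74 tested pairs 12 rose (16.2%) and 0 fell in ES 2i, where 6.53% of all tested pairs were higher.

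Partners that overlap Rad23b were the class with the highest level in 2i. Their 27 pairs averaged 1.52 ± 0.149 in NPC, 1.36 ± 0.238 in iPS, 2.48 ± 0.258 in iPS 2i, 3.59 ± 0.306 in ES 2i and 1.35 ± 0.161 in ES (observed over expected, SD, n = 2 each). Both 2i groups lay above the other 3, which overlapped each other. Of the 24 tested pairs 9 rose (37.5%) and 0 fell in ES 2i against ES, where 6.53% of all tested pairs were higher and 5.27% lower. With the length factor in the expected count the class gave 3.28 and 3.03 in ES 2i, against 1.35 and 1.15 in ES. FOR_202 alone, in its 5 pairs with Rad23b, gave 4.57 and 3.30 in NPC, 2.78 and 3.96 in iPS, 8.25 and 6.33 in iPS 2i, 12.1 and 10.1 in ES 2i, and 3.55 and 2.50 in ES.

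The pairs of FOR_202 around Rad23b were singled out after their values were seen. REV_160 (chr4:55357406-55371555) holds the Rad23b start, 122.9 kb from FOR_202, and the pair had 193 and 172 counts in NPC, 201 and 310 in iPS, 439 and 445 in iPS 2i, 695 and 876 in ES 2i, and 502 and 361 in ES. Its log2 change for ES 2i minus ES was 1.98 ± 0.32 (edgeR adjusted p = 0.000501), and 1.27 with the length factor (edgeR adjusted p = 0.00655). REV_170 (chr4:55395564-55408708) holds the end of the gene, and the pair had 538 and 523 counts in NPC, 528 and 558 in iPS, 1330 and 1170 in iPS 2i, 2216 and 2193 in ES 2i, and 1272 and 1025 in ES. It rose by 2.09 ± 0.28 on the log2 scale in ES 2i (edgeR adjusted p = 7.15e-05), and by 1.36 with the length factor (edgeR adjusted p = 0.000993). Both partner fragments are over 13 kb long, and with the primer effect in the offset neither pair was called.

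In iPS 2i against iPS, 3 members rose and 0 fell, or 0.477%, where 0.0514% of all tested pairs were called (0.0474% higher and 0.00395% lower). The member median log2 change was 0.37, against -0.12 over all pairs. All 3 called pairs were of FOR_202. With REV_172 (chr4:55413923-55418588), just above the Rad23b end, the counts were 666 and 712 in NPC, 603 and 598 in iPS, 1999 and 1463 in iPS 2i, 3135 and 2254 in ES 2i, and 2711 and 2163 in ES. The log2 change for iPS 2i minus iPS was 1.69 ± 0.30 (edgeR adjusted p = 0.0347). The libraries of iPS 2i overlapped none of iPS, which the rule for naming pairs required in observed over expected. The same pair gave 1.30 for ES 2i minus ES (edgeR adjusted p = 0.00689). It was not called with the length factor (0.78, edgeR adjusted p = 0.0619) or with the primer effect in the offset (0.29, edgeR adjusted p = 0.548). The change was 1.12 without ES replicate 2 and 0.84 without ES 2i replicate 1.

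The other called pairs of iPS 2i against iPS lay inside the element. FOR_202 with REV_198 had 1350 and 1466 counts in NPC, 664 and 771 in iPS, 2979 and 2597 in iPS 2i, 5149 and 4806 in ES 2i, and 4111 and 3566 in ES. Its log2 change was 1.46 ± 0.22 (edgeR adjusted p = 0.00645) for iPS 2i minus iPS and -1.50 ± 0.22 for NPC minus ES (edgeR adjusted p = 8.05e-05). The NPC minus ES change was -0.21 and not called under TMM scaling with no distance stratum. With the primer effect in the offset it was 0.21 (edgeR adjusted p = 0.36) and not called. FOR_202 with REV_196 gave 1.33 for iPS 2i minus iPS (edgeR adjusted p = 0.0434). Without any 1 of iPS replicates 1 and 2 and iPS 2i replicate 1 the calls over the members were 0, and without ES replicate 1 or ES replicate 2 there was 1. REV_170 had a log2 change of 1.41 (edgeR adjusted p = 0.0655) and was not called.

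In iPS 2i against ES 2i edgeR called 0 of the 75889 tested pairs (0%), while 37 members and 3869 of all pairs had an unadjusted p below 0.05. DESeq2 called 0 of the 629 members as well. The member median log2 change was -0.15 and that of all pairs 0.05. In iPS 2i against NPC, 65 members rose and 1 fell, or 10.5%, where 6.16% of all tested pairs were called (4.27% higher and 1.89% lower). With the primer effect in the offset the split was 11 higher and 27 lower. The rises were spread over REV_204 (24), FOR_202 (16), REV_198 (12), FOR_197 (9) and REV_196 (7), with some pairs counted under 2 fragments of the element, and FOR_195 had 0 higher and 1 lower. The count was 43 without NPC replicate 2, 27 without iPS 2i replicate 1 and 40 without iPS 2i replicate 2. The named pairs were FOR_202 with REV_87 (log2 change 3.76, with 170 and 173 counts in iPS 2i, against 18 and 0 in NPC), REV_204 with FOR_264 (3.69), with FOR_270 (3.33) and with FOR_244 (3.11), and FOR_197 with REV_193 (3.27). FOR_202 with REV_87 is a fitted value against 1 library at 0.

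The test of the 2i response in iPS minus that in ES called 2 members, or 0.318%, where 1.96% of all tested pairs were called (0.573% higher and 1.39% lower), and both are pairs of FOR_202. Both were lower, while TMM scaling with no distance stratum gave 5 higher and 1 lower. With REV_218, between the element and the Klf4 promoter window, observed over expected was 4.58 and 3.91 in NPC, 2.60 and 3.30 in iPS, 4.64 and 3.84 in iPS 2i, 5.95 and 7.23 in ES 2i, and 1.69 and 1.56 in ES. ES lay below every other group here, with a log2 change of 2.02 for ES 2i minus ES (edgeR adjusted p = 9.82e-05) and 1.38 for NPC minus ES (edgeR adjusted p = 0.00149). With the primer effect in the offset the ES 2i minus ES change was 0.25 (edgeR adjusted p = 0.589) and was not called.

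The pairs of the element with the Klf4 promoter window itself number 15 and are not members. Their observed over expected averaged 0.834 ± 0.142 in NPC, 0.992 ± 0.184 in iPS, 2.39 ± 0.427 in iPS 2i, 3.08 ± 0.269 in ES 2i and 1.29 ± 0.0906 in ES (SD, n = 2 each), so both 2i groups lay above the other 3, as they did for Rad23b.

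RNA of the 3 genes of the region was measured in separate libraries of the same 5 kinds of cells, with 1150624 to 17286063 reads assigned to transcript models. Between 26.5% (ES replicate 1) and 86.6% (NPC replicate 1) of the counted reads lay in no model. Klf4 had 10.0 and 10.1 CPM in NPC, 358 and 280 in iPS, 150 and 152 in iPS 2i, 161 and 156 in ES 2i, and 83.7 and 95.1 in ES. NPC was low and iPS high, with log2 changes of -3.13 ± 0.21 for NPC minus ES (edgeR adjusted p = 3.14e-14) and 1.84 ± 0.14 for iPS minus ES (edgeR adjusted p = 1.36e-12). The counts do not separate endogenous Klf4 from any introduced copy. In 2i Klf4 rose in ES cells (0.84 ± 0.13, edgeR adjusted p = 1.32e-05) and fell in iPS cells (-1.08 ± 0.13, edgeR adjusted p = 6.68e-08), while iPS 2i and ES 2i differed by -0.07 ± 0.13 (edgeR adjusted p = 0.727).

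Rad23b had 323 and 309 CPM in NPC, 645 and 662 in iPS, 889 and 944 in iPS 2i, 1309 and 1111 in ES 2i, and 1067 and 1079 in ES. It was lower in NPC than in ES (-1.76 ± 0.13, edgeR adjusted p = 6.27e-13) and rose in iPS 2i against iPS (0.49 ± 0.13, edgeR adjusted p = 0.00217), but its log2 change for ES 2i minus ES was 0.17 ± 0.13 (edgeR adjusted p = 0.346). Zfp462 had 87.1 and 83.2 CPM in NPC, 41.2 and 62.3 in iPS, 93.3 and 108 in iPS 2i, 173 and 180 in ES 2i, and 123 and 131 in ES. It rose in 2i in ES cells (0.48, edgeR adjusted p = 0.0127) and in iPS cells (0.95, edgeR adjusted p = 6.96e-06). Of all tested models 61% were called for NPC minus ES (27.3% higher, 33.7% lower), 52.9% for iPS minus ES (25.9% higher, 26.9% lower), 24.5% for ES 2i minus ES (11.3% higher, 13.2% lower), 42.6% for iPS 2i minus iPS (21.1% higher, 21.5% lower) and 59.4% for iPS 2i minus NPC (33.4% higher, 26% lower). Contacts and RNA did not move side by side in iPS, where Klf4 RNA was the highest of the 5 groups while the member level, at 0.823 ± 0.0516, was below that of ES. The 5 groups are too few for a correlation.

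**Figure D5:**
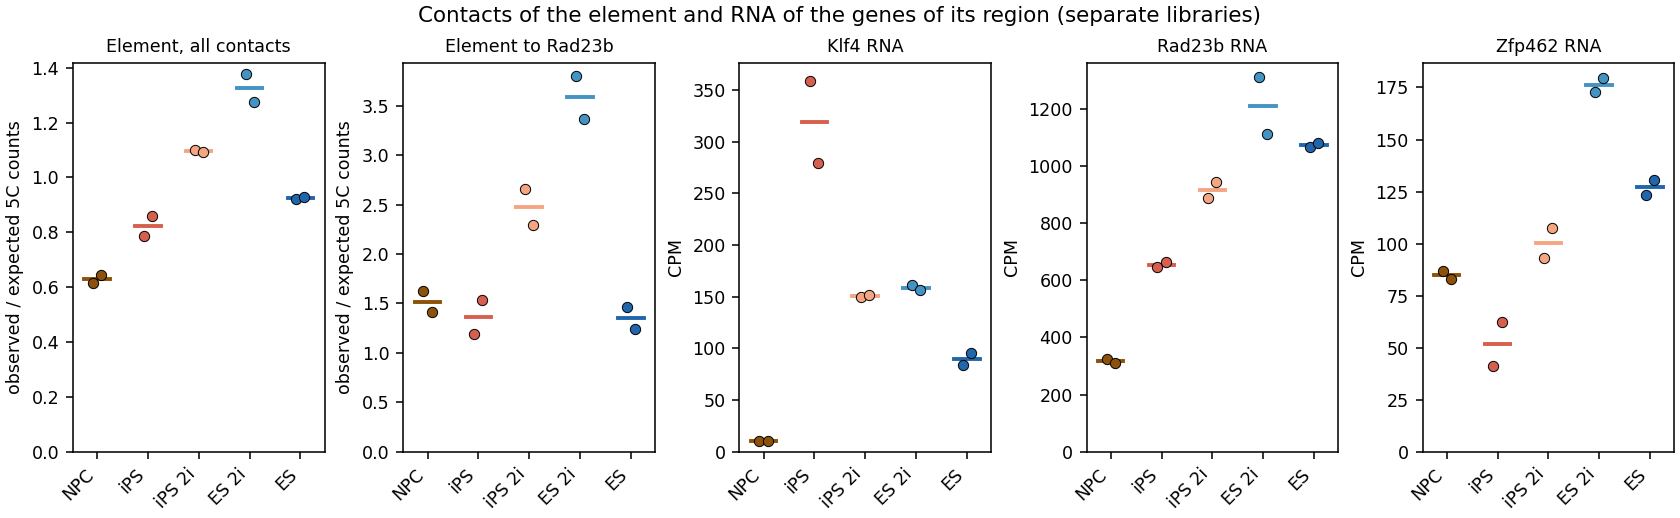
Observed over expected of all members and of the Rad23b class in the 5C libraries, and CPM of Klf4, Rad23b and Zfp462 in the RNA libraries, for NPC, iPS, iPS 2i, ES 2i and ES. Points are libraries, which differ between the 2 assays, and bars are means of 2; Klf4 RNA was highest in iPS (358 and 280 CPM) while the element's contacts were highest in ES 2i (1.38 and 1.28).

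Other genes of the pluripotency network and of chromatin looping were read from lists. Of 20 pluripotency factors 11 were tested. All 11 fell in NPC against ES and all 11 rose in iPS 2i against NPC; in iPS against ES 2 rose (Klf4 and Pou5f1, which encodes OCT4) and 9 fell, among them Tcfcp2l1 (log2 change -4.53) and Klf5 (-2.93). In ES 2i against ES, Klf4 (0.84) and Prdm14 (2.09), which encodes a repressor of differentiation genes, rose and Nr0b1 (-0.47) fell. In iPS 2i against iPS 8 rose and 2 fell. Of 20 genes of loop and enhancer machinery 15 were tested. In NPC against ES 4 rose, among them the cohesin subunit Smc1a (1.67), and 6 fell, among them the cohesin subunit Rad21 (-1.07), the insulator protein Ctcf (-1.54) and the deacetylase Hdac1 (-2.15). In iPS against ES 0 rose and 7 fell, Ctcf (-1.83) and Rad21 (-1.57) included. The Ctcf model was near the floor throughout, at 0.837 and 1.74 CPM in NPC, 1.24 and 1.19 in iPS, and 4.15 and 4.74 in ES. In ES 2i against ES only the acetyltransferase Ep300 (-0.51) of the 15 was called.

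Pluripotent markers (6 of 7 measured) were at 0 CPM in both NPC libraries and summed to between 3277 and 5511 in the other 8. Neural progenitor markers (5 of 8) summed to between 5377 and 6507 in NPC, 272 and 304 in iPS, 92.3 and 103 in iPS 2i, 58.8 and 63.8 in ES 2i, and 71.6 and 79.0 in ES. Most of the NPC sum came from Olig1 and Olig2, with means of 4095 and 1743 CPM, and all 5 were higher in NPC than in ES. Sox1 of the same list went the other way in iPS, at 254.9 ± 20.9 CPM, against 90.9 ± 14.9 in NPC (SD, n = 2 each), and was the 1 of the 5 that rose in iPS against NPC while 4 fell. Of all 11031 tested models 51.3% were called for iPS minus NPC, 3235 higher and 2428 lower. The neuron marker Tubb3, the 1 of 5 that was measured, averaged 35.7 CPM in NPC, 866 in iPS, 358 in iPS 2i, 239 in ES 2i and 281 in ES.

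Fibroblast markers summed to between 74.5 and 105 CPM in NPC, 907 and 921 in iPS 2i, and 438 and 449 in ES 2i, below the sums given for iPS and ES. Acta2 and Tagln, genes of the contractile apparatus, made up most of the sums in iPS and ES. The collagen gene Col3a1 went the other way in 2i, at 229.0 ± 4.58 CPM in iPS 2i, against 108 ± 16.9 in iPS, and at 115.8 ± 0.335 in ES 2i, against 17.4 ± 2.56 in ES (SD, n = 2 each). Of the 6 measured, 2 rose and 3 fell in ES 2i against ES, and 1 rose and 5 fell in iPS 2i against iPS.

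The authors' deposited tables give a second reading on 20 kb bins. In the authors' deposited table of binned values, the mean over 1407 bin pairs of the element, on a log2 scale corrected for distance, was -0.29 and -0.32 in NPC, -0.33 and -0.22 in iPS, 0.14 and 0.13 in iPS 2i, 0.31 and 0.24 in ES 2i, and -0.02 and -0.02 in ES. There iPS lay at the level of NPC, where in observed over expected it lay above. In the authors' deposited table of classes, made from the ES, NPC and iPS libraries, 63 of 195 bin pairs of the element (32.3%) were classed as ES only, against 239 of 3525 in the Klf4 region (6.78%) and 2592 of 32065 in all regions (8.08%). One bin pair of the element (0.513%) was classed as NPC only, against 14.8% in all regions, and 127 (65.1%) as background. Bins overlap their neighbours, so these bin pairs are not independent.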

How the data were processed

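For 5C, the authors deposited a whole-number count for every primer pair, and the submitters' processing notes name Bowtie and the build mm9. The authors also deposited binned contact frequencies in 20 kb bins at steps of 4 kb, whose log scale was taken as log2 after looking at the values, and a class per bin pair. For RNA, the authors deposited a count of reads per transcript model, with TopHat, TopHat2 2.1.0, HTSeq and mm9 in the submitters' processing notes. Counts per gene had been foreseen, so models were tested and named through the authors' deposited expression table.

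Here, 5C counts were tested with edgeR 4.0.16 in R 4.3.3 (quasi-likelihood F test, group as the only term, all 10 libraries, 5 residual degrees of freedom). The offset was the log total of the same library, region and distance stratum, and p-values were adjusted over all 75889 pairs with a mean of at least 10 counts. Observed over expected is a description with no test. RNA counts were fitted with edgeR (TMM scaling, filter by expression, 11031 of 55419 models tested) with limma 3.58.1, and DESeq2 1.42.0 was an alternative. On simulated data for NPC minus ES the 5C fit recovered 1% of 2-fold and 26% of 4-fold changes over 75889 pairs, with 2 false calls. Only 100 pairs were changed at each size, and every pair had the same spread. In the data 17.9% of the pairs were called for NPC minus ES, so the adjusted cut-off was stricter in the simulation. The share of such changes missed in the data was not measured. Counts of PCR products are not independent molecules.

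The members and lists were chosen with earlier results of these data known. Named pairs were the 5 largest in each direction among called pairs with a mean count of at least 50 and groups that did not overlap in observed over expected (for the difference of the 2i responses, with no rule on overlap). Fragments of the element were all named, and the 3 most changed partners in each direction were computed. Correlations of deviations of same-numbered libraries between groups ranged from -0.0393 to 0.166 in 5C and from -0.0898 to 0.0662 in RNA, so the numbers were not used as pairs.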

Additional observations from a re-analysis of the deposited data

Results flagged for a closer look

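The 2i response differed between iPS and ES cells in 3 results by a test of the difference itself. For the pair of FOR_202 with REV_314, beyond the Klf4 promoter window, the response in iPS cells minus that in ES cells was -2.29 ± 0.59 on the log2 scale (SE, edgeR adjusted p = 0.048). Observed over expected was 2.14 and 2.95 in iPS 2i, against 3.44 and 1.95 in iPS, and 2.67 and 3.45 in ES 2i, against 0.527 and 0.788 in ES. The iPS libraries overlapped each other across media and the ES libraries did not. For FOR_202 with REV_218 the difference was -1.49 ± 0.38 (edgeR adjusted p = 0.0458). Neither pair was called with the length factor or the primer effect in the offset. The 2 pairs were 0.318% of the tested members, where 1.96% of all tested pairs were called. For Klf4 RNA the difference was -1.92 ± 0.19 (edgeR adjusted p = 5.39e-09), with a rise in ES cells and a fall in iPS cells. Of all 11031 tested models 27.3% were called for this difference, 1667 higher and 1344 lower. No cause was tested.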

How the results depend on the processing

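Counts of members called depended most on the offset and on single libraries. With the region total and no distance stratum they were 267 for NPC minus ES, 270 for iPS minus NPC, 54 for ES 2i minus ES, 211 for iPS 2i minus NPC and 1 for the difference of the 2i responses. TMM scaling with no stratum gave 66 for iPS minus NPC, 43 for iPS minus ES, 15 for iPS 2i minus iPS, 106 for iPS 2i minus NPC and 6 for the difference. With 10 strata there were 71 for iPS minus NPC and 1 for the difference. The primer effect in the offset left 0 for iPS minus ES, 6 for ES 2i minus ES, 0 for iPS 2i minus iPS, 38 for iPS 2i minus NPC and 0 for the difference, and it turned the iPS minus ES change of REV_198 with FOR_205 to 0.078 on the log2 scale. The length factor left 0 for the difference. DESeq2 gave 25 for iPS minus ES, 15 for iPS 2i minus iPS and 15 for the difference, and a mean count of at least 50 gave 5 for the difference. Fits of only the 2 groups compared gave 21 for iPS minus NPC and 35 for iPS 2i minus NPC. Taking members by a fragment's midpoint (594 members, without REV_204) gave 20 for iPS minus NPC and 43 for iPS 2i minus NPC. Widening the element by 10 kb on each side (1404 members) gave 173 for NPC minus ES, 94 for iPS minus NPC, 28 for iPS minus ES, 136 for ES 2i minus ES and 8 for the difference. Apart from the widened and midpoint members, where the construction changes the number of pairs tested, the primer effect and the fits of 2 groups, the cause was not tested.

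With 1 library left out, the members called ranged from 44 to 90 for NPC minus ES, 16 to 42 for iPS minus NPC, 2 to 18 for iPS minus ES, 19 to 99 for ES 2i minus ES, 0 to 4 for iPS 2i minus iPS, 27 to 67 for iPS 2i minus NPC, and 0 to 3 for the difference, and were 0 throughout for iPS 2i minus ES 2i. For the difference, leaving out ES replicate 1, ES 2i replicate 1, iPS replicate 2, iPS 2i replicate 1 or iPS 2i replicate 2 gave 0, and leaving out ES replicate 2, ES 2i replicate 2 or iPS replicate 1 gave 1. The replicate block was no paired design here and gave 102, 48, 15, 93, 4, 84 and 4 calls for these 7 comparisons with calls.

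The level of all members, as log2 observed over expected, moved by more than its spread in these cases. For NPC minus ES it was -0.68 with 10 strata, -0.44 with 40 strata, -0.031 with the median as the expected count and -0.28 in the authors' deposited binned table. For iPS minus NPC it was 0.52, 0.27, -0.31 and 0.034 in that order, and for iPS 2i minus NPC 0.88, 0.73, 0.40 and 0.44. With the median and in the binned table it was -0.34 and -0.25 for iPS minus ES, 0.77 and 0.30 for ES 2i minus ES, and -0.40 and -0.14 for iPS 2i minus ES 2i, and with the median 0.71 for iPS 2i minus iPS. Leaving out 1 library gave -0.59 to -0.52 for NPC minus ES, 0.32 to 0.45 for iPS minus NPC, -0.24 to -0.11 for iPS minus ES, 0.46 to 0.57 for ES 2i minus ES, 0.35 to 0.48 for iPS 2i minus iPS, -0.33 to -0.22 for iPS 2i minus ES 2i, and 0.76 to 0.83 for iPS 2i minus NPC. Klf4 RNA kept its direction and its side of the threshold in all 112 values of the alternatives run.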
